A study of Mus musculus with 9 samples.

Results

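The comparison described here was that of MyD88 knockout and wild-type mouse macrophages after 4 h of lipopolysaccharide (LPS), taken as the level each gene reached. It rested on 2 of the series' 9 arrays, the MyD88 KO and the wild-type array at 4 h, with 1 array on each side. Of 12394 genes on the array, 10032 were analysed: each was read from 1 probe set, the one whose mean over the 9 arrays was highest, and had to reach a log2 value of 6 on at least 1 of them. All cells were peritoneal macrophages collected from mice injected with thioglycollate, an irritant that draws macrophages into the peritoneal cavity, and all stimulated cells received 100 ng/ml of LPS. The other arrays held wild-type and MyD88 KO cells at 0 and 1 h and TRIF KO cells at 0, 1 and 4 h. The labels give the genotype and the time, but no age, sex, strain background or number of pooled mice, so with 1 array a group no difference has a replicate check.

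LPS from Gram-negative bacteria is sensed by TLR4 together with CD14 and MD-2. The receptor signals through 2 adaptor branches: MyD88, recruited at the plasma membrane, drives IRAK and TRAF6 kinase and ligase complexes, NF-kB and MAP kinases, and TRIF, recruited from endosomes, drives TBK1, IRF3 and type I interferon as well as a later NF-kB signal. Inflammatory cytokine genes in macrophages draw on both branches, whereas many interferon-stimulated genes draw mainly on TRIF.

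Levels below are the deposited log2 RMA values, on which 1 unit is a 2-fold change, and differences are MyD88 KO minus wild-type unless stated. The array medians over all probe sets lay between 7.01 and 7.07. Macrophage markers were high on both arrays: Adgre1, the surface marker of mature macrophages, read 12.26 in wild-type and 11.88 in MyD88 KO, and C1qa, a complement subunit, read 12.17 and 11.98. Of the 14 macrophage markers that reached the limit, 7 read below wild-type and 7 above, with Cd14 lower by limma and the engulfment receptor Mertk higher, at 8.06 and 8.62 (difference 0.56, adjusted p = 0.0175, and 0.0993 after centring). Across the 9 lists of markers of other cell types, fibroblast markers were the only ones with members that passed the test described below, and their values stand beside the collagen gene. The Myd88 transcript itself read 9.57, 9.58 and 10.002 in wild-type at 0, 1 and 4 h and 9.30, 9.19 and 9.34 in MyD88 KO. It was lower in MyD88 KO at all 3 times, by 0.66 ± 0.13 (SE) at 4 h (limma, adjusted p = 0.00498), but remained well measured. Whether its probe set reads inside the deleted exons is unknown, so this level does not check the label. The TRIF gene, Ticam1, was not analysed here.

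The genes with the lowest differences included the neutrophil-attracting chemokines Cxcl1 and Cxcl2 and the cytokine Il6, whose promoters are shown because they hold a match to an NF-kB (kB) motif close to the start. The sequences are the 250 bases before the transcription start in RefSeq (GRCm38.p6), on the gene's strand, and capitals mark matches to GGNNTTTCC or its reverse complement. Cxcl1 lies at chr5:90890995-90891244 (+ strand), Cxcl2 at chr5:90903649-90903898 (+ strand) and Il6 at chr5:30012864-30013113 (+ strand).
Cxcl1: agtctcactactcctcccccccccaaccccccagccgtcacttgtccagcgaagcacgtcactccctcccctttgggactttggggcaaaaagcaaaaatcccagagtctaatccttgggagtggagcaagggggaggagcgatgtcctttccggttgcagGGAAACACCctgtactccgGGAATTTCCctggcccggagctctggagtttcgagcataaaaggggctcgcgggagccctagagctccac
Cxcl2: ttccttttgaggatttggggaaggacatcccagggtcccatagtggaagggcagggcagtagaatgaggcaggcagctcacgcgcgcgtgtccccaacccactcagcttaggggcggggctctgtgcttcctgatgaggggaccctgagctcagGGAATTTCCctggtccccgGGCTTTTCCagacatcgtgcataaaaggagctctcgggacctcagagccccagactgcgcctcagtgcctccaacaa
Il6: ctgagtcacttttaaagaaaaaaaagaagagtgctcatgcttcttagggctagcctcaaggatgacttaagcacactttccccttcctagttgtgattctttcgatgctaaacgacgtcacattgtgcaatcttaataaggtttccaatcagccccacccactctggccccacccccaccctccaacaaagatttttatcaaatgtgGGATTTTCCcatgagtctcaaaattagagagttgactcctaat
The Cxcl1 matches began 89 and 70 bases before the start, those of Cxcl2 96 and 77 bases, and that of Il6 43 bases. Over the 300-base RefSeq promoter windows, searched on both strands, this motif was found in 12 of the 43 promoters available for genes at least 2-fold lower (27.9%), in 2 of 17 for genes at least 2-fold higher (11.8%), and in 594 of 8081 for all genes analysed (7.4%). A match to GGNNTTCCC, which can overlap the first motif, was found in 16.3% of the lower promoters, 17.6% of the higher and 8.4% of all. A C/EBP motif, TTNNGNAA, was found in 69.8%, 58.8% and 36.4%. TATAAA was found in 20.9%, 23.5% and 10.5%, so the higher genes held the last 3 motifs about as often as the lower. The interferon-response motif GAAANNGAA was found in 11.6%, 11.8% and 8.5%, the AP-1 motif TGANTCA in 9.3%, 17.6% and 7.1%, and the CRE motif TGACGTCA in 4.7%, 5.9% and 3.3%. These matches describe letters in the window and do not show binding.

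After 4 h of LPS, the genes furthest below wild-type in MyD88 KO macrophages were chemokines (Cxcl1, Cxcl2 and Ccl3), cytokines (Il1b, Il6 and Tnf), the NF-kB regulator Nfkbiz and the cyclooxygenase Ptgs2, and fewer genes stood higher than lower at 2-fold. At a 2-fold limit, 56 genes were lower (0.558% of 10032) and 21 higher (0.209%). At 4-fold the counts were 12 and 3. The same pair of genotypes differed less at the earlier times, with 24 genes 2-fold lower (0.239%) and 12 higher (0.12%) at 1 h, and 17 lower (0.169%) and 8 higher (0.0797%) in unstimulated cells. The median difference over all genes at 4 h was -0.03.

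**Figure D1:**
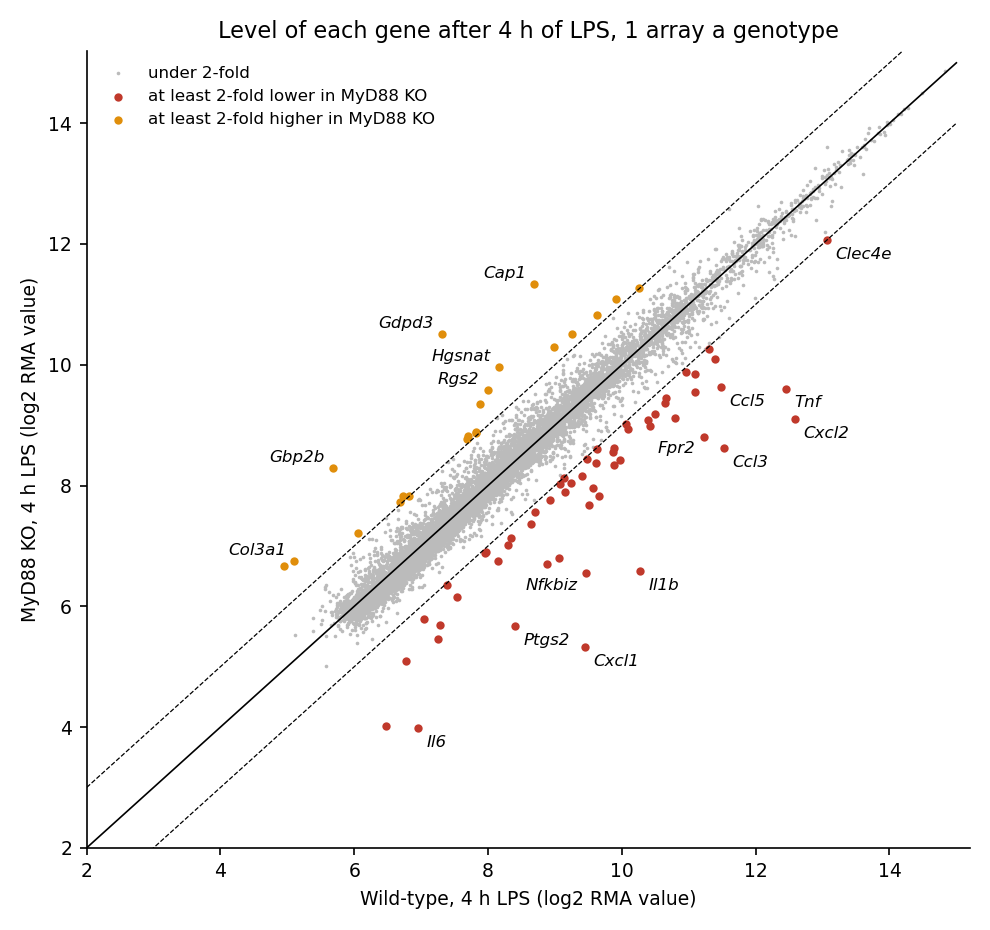
Log2 RMA value of each of the 10032 genes after 4 h of LPS in wild-type (horizontal axis) and MyD88 KO (vertical axis) macrophages, 1 array a genotype. The solid line marks equal levels and the dashed lines a 2-fold difference; 56 genes lie on or under the lower dashed line, led by Cxcl1, and 21 on or above the upper one, led by Gdpd3.

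Because each side has 1 array, a standard error was borrowed: limma was fitted to all 9 arrays with a mean for each 4 h array, and the spread came from how far the 0 and 1 h arrays of the 3 genotypes departed from genotype plus time. The test thus assumes that a 4 h array varies like those, and a gene that responded to LPS differently between genotypes within 1 h gets a large error. At an adjusted p under 0.05, 212 genes were lower (2.11%) and 313 higher (3.12%), with median differences of -0.72 and 0.63, and all 56 and all 21 genes past 2-fold passed. Their passing is no separate support, since the estimate is the difference of the same 2 arrays. With a median SE of 0.13, the smallest differences called were -0.46 and 0.46, well inside 2-fold. At an unadjusted p under 0.05, 740 genes were lower and 889 higher. The split turned with the scaling: 59.6% of the calls were higher with the values as deposited, but 29.8% (100 higher, 236 lower) once each array was centred on 17 reference transcripts, which moved every 4 h difference down by 0.12. The counts also grew to 452 and 654 when either the 0 h or the 1 h array of wild-type was left out and to 384 and 572 for those of MyD88 KO, and fell to 7 and 5 when values under 6 were raised to 6.

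Of the TLR4 receptor and adaptor genes, 3 of 9 were lower by limma and none was higher. Over all genes 2.11% were lower and 3.12% higher, and each list count below is to be read against these shares. Cd14, the co-receptor that hands LPS to the receptor complex, read 12.28 in wild-type and 11.42 in MyD88 KO at 4 h, a difference of -0.85 ± 0.14 (SE; limma adjusted p = 0.00137). Tlr2, the receptor for bacterial lipopeptides, read 9.31, 9.77 and 11.15 in wild-type and 8.11, 8.65 and 10.30 in MyD88 KO. Its MyD88 KO level was thus below wild-type at each time, and the difference at 4 h, -0.85, was smaller than the -1.20 before LPS. Ly96, which encodes MD-2, differed by 0.12 (adjusted p = 0.726) and Tirap, the bridging adaptor of MyD88, by -0.12 (adjusted p = 0.704). Among 15 kinases and ligases of the pathway only Map3k8, the kinase TPL2 that acts above ERK, passed, at -0.66 (adjusted p = 0.0316). After centring on the reference transcripts Map3k8, at -0.78, no longer passed (adjusted p = 0.0626) and the ligase gene Traf2 did, at -0.58.

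NF-kB subunits and inhibitors lay below wild-type in all 12 measured members, against 55.5% of all genes, with a median of -0.68, and 7 of the 12 passed. Nfkbiz, the nuclear IκB protein that is needed for Il6 transcription, read 6.87, 10.73 and 9.47 in wild-type at 0, 1 and 4 h, 5.92, 7.31 and 6.55 in MyD88 KO, and 7.07, 10.39 and 9.12 for TRIF KO. The MyD88 KO array was the lowest of the 3 genotypes at every time and lay 7.55-fold under wild-type at 4 h (adjusted p = 0.00162). A second Nfkbiz probe set gave -1.67. Nfkbie, which encodes IκBε, read 9.08 and 8.03 at 4 h, a difference of -1.06 that was -1.07 at both earlier times. Rel, the c-Rel subunit, read 7.96 and 6.88, and Nfkb2, the p100 precursor, 9.76 and 9.04. The negative regulators Tnip1 and Tnfaip3 (A20) were 0.99 and 0.89 below wild-type; Tnfaip3 lost the call after centring (adjusted p = 0.0719), although its difference was then -1.01, with an SE of 0.26 instead of 0.21.

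Among the cytokines, Il1b, Il6 and Il12a read near their unstimulated level in MyD88 KO at 4 h. Of 18 inflammatory cytokine genes 9 were lower by limma and none higher, with a median of -0.51 against -0.03 for all genes. Il1b read 6.95, 9.83 and 10.27 in wild-type, 6.61, 7.60 and 6.58 in MyD88 KO, and 6.99, 9.21 and 8.81 for TRIF KO. The MyD88 KO array was raised in part at 1 h and was back at its starting level at 4 h, 12.9-fold under wild-type (difference -3.69 ± 0.37, SE; adjusted p = 1.3e-05). Il1a, the companion interleukin-1 gene, read 9.06 in wild-type, 6.80 in MyD88 KO, and 8.03 for TRIF KO at 4 h.

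Il6 read 3.97, 4.47 and 6.95 in wild-type, 4.20, 3.90 and 3.98 in MyD88 KO, and 3.91, 4.29 and 4.31 for TRIF KO. The wild-type array at 4 h was far above the other 8, of which the highest was wild-type at 1 h, and MyD88 KO lay 7.88-fold under it (adjusted p = 1.67e-07). Il6 reached the level limit of 6 on that wild-type array alone, so it was analysed only because it was high there. With values under 6 raised to 6 the difference was -0.96 (adjusted p = 0.0599). Tnf, which never read under 6, did not pass in that setting either. Tnf read 9.54, 12.67 and 12.46 in wild-type, 8.82, 10.08 and 9.61 in MyD88 KO, and 9.66, 11.92 and 11.75 for TRIF KO. Its MyD88 KO level was the lowest of the genotypes at each time, including before LPS, and lay 7.23-fold under wild-type at 4 h (adjusted p = 0.000118). Il12a, the p35 chain of interleukin-12, read 7.25, 5.46 and 6.26 at 4 h in wild-type, MyD88 KO and TRIF KO. Tnfsf9, the 4-1BB ligand, read 8.88, 6.70 and 7.69, and its call (adjusted p = 0.013) was lost after centring (adjusted p = 0.0758), where the difference was -2.30 instead of -2.18 with a larger SE, 0.61 instead of 0.48. The lowest of these levels, such as that of Il6, lie near the array's floor, where RMA compresses differences.

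Of 17 chemokine genes not induced by interferon, 7 were lower by limma and none higher (median -0.26). Cxcl1 read 5.19, 9.17 and 9.44 in wild-type, 5.11, 6.24 and 5.33 in MyD88 KO, and 5.33, 8.57 and 8.28 for TRIF KO. It started level in the 3 genotypes, and at 4 h the MyD88 KO array was back at the unstimulated value, 17.3-fold under wild-type (-4.12 ± 0.54, SE; adjusted p = 0.0002). This was the largest difference with the values as deposited; with values under 6 raised to 6, Cxcl1 differed by -3.44, less than Il1b at -3.69 and Cxcl2 at -3.49. Cxcl2, whose promoter also carries a pair of kB matches, read 9.01, 12.36 and 12.59 in wild-type, 7.18, 10.12 and 9.10 in MyD88 KO, and 9.27, 11.90 and 11.88 for TRIF KO. Unlike Cxcl1 it was already 1.84 lower in unstimulated MyD88 KO cells, and the gap grew to 3.49 at 4 h (adjusted p = 6.36e-09). Ccl3, an attractant of monocytes and T cells, read 11.53 in wild-type, 8.61 in MyD88 KO, and 10.56 for TRIF KO at 4 h, from 8.73, 8.96 and 9.23 before LPS. Its MyD88 KO level at 4 h was therefore slightly under its own start. The related Ccl4 read 10.80, 9.11 and 9.68, and Cxcl5 read 6.47, 4.02 and 5.005. Cxcl5 reached the level limit of 6 on the wild-type 4 h array alone. Raised to 6, its difference shrank from -2.45 to -0.47 and did not pass (adjusted p = 0.112). Cxcl2, which never read under 6 and stayed at -3.49, did not pass in that setting either.

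**Figure D2:**
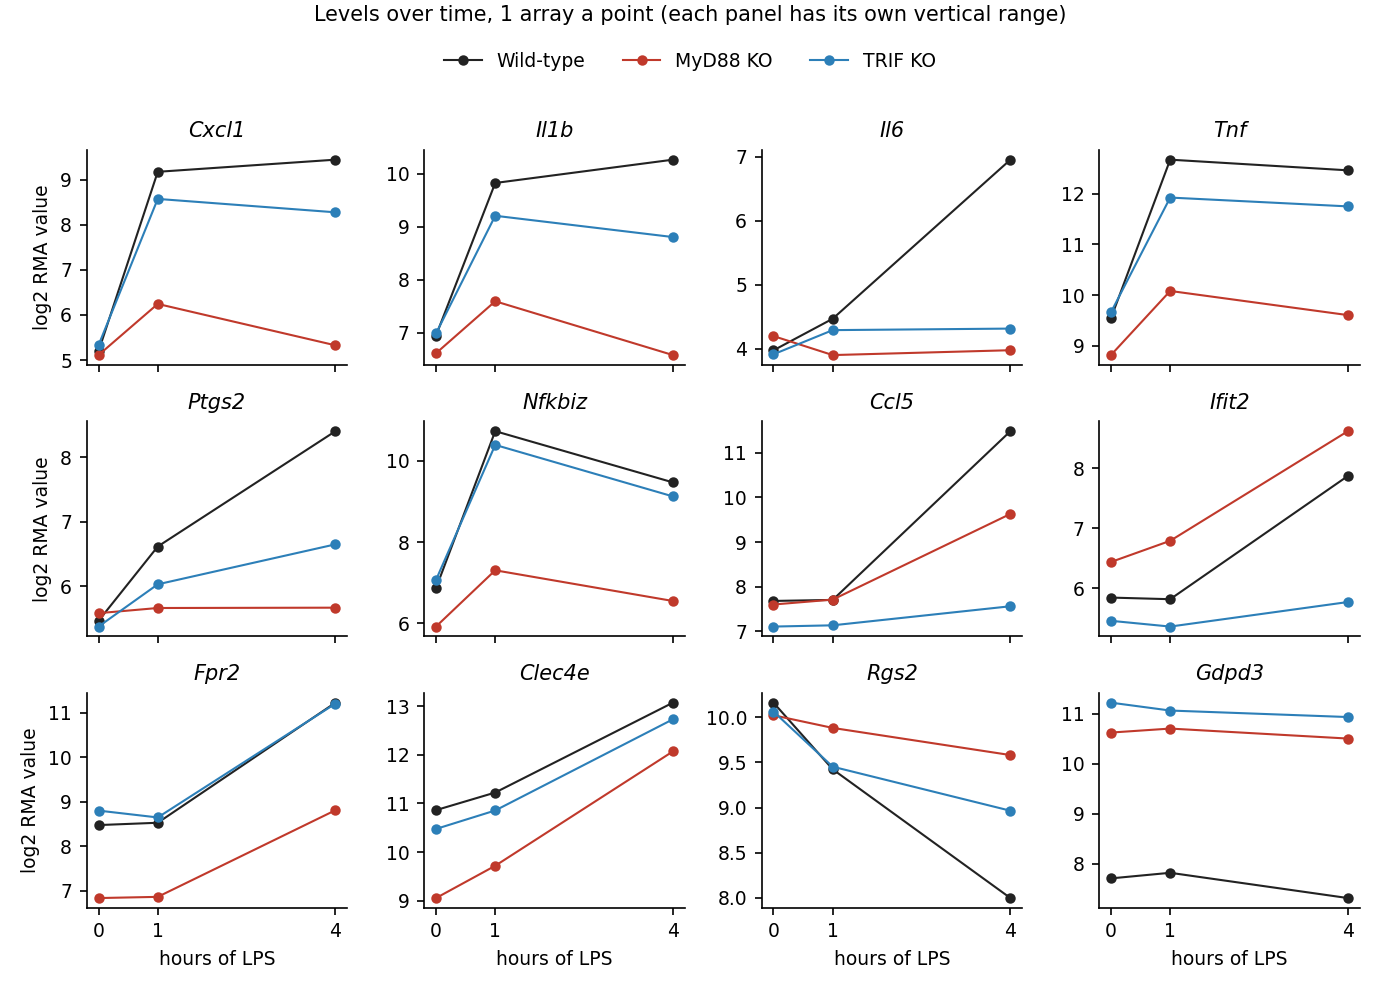
Log2 RMA values of 12 genes (vertical axis, own range in each panel) at 0, 1 and 4 h of LPS (horizontal axis) in wild-type (black), MyD88 KO (red) and TRIF KO (blue) macrophages, 1 array a point. Cxcl1 and Il1b returned to their unstimulated level in MyD88 KO at 4 h, Ccl5 and Ifit2 were lowest in TRIF KO, and Fpr2 and Gdpd3 differed between MyD88 KO and wild-type before LPS.

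Among prostaglandin, itaconate, arginine and radical effectors 15 of 32 were lower by limma and 1 higher (median -0.43). Ptgs2, the inducible cyclooxygenase COX-2, read 5.47, 6.62 and 8.40 in wild-type, 5.59, 5.67 and 5.67 in MyD88 KO, and 5.38, 6.03 and 6.65 for TRIF KO. No response was visible in MyD88 KO, and the 6.62-fold difference at 4 h (adjusted p = 2.21e-06) was larger, -3.36, in a second probe set. Ptges, which makes prostaglandin E2 from the product of COX-2, read 9.57, 7.96 and 8.73 at 4 h in wild-type, MyD88 KO and TRIF KO. Slc7a2, an arginine transporter, read 9.64, 8.61 and 8.76. Lcn2 (lipocalin 2), which withholds iron from bacteria, and Marco, a scavenger receptor, differed otherwise: both were lower at each time, Lcn2 by 1.14, 1.20 and 1.68 and Marco by 1.27, 0.97 and 1.31. Raised to 6, a level that it reached in wild-type only, Lcn2 differed by -0.77 at 4 h. Arg1, arginase 1, was the member that was higher, at 12.58 against 11.60, and it was higher by 0.85 before LPS too.

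Of 33 pattern, formyl peptide and metabolite receptors 10 were lower by limma and 2 higher (median -0.13). Fpr2, a formyl peptide receptor of phagocytes, read 8.48, 8.53 and 11.22 in wild-type, 6.84, 6.86 and 8.81 in MyD88 KO, and 8.80, 8.65 and 11.20 for TRIF KO. TRIF KO read close to wild-type at 4 h, while MyD88 KO was lower from the start and 5.33-fold lower at 4 h (adjusted p = 1.13e-08), although it read 1.97 above its own start. Clec4e (Mincle), a receptor for mycobacterial glycolipid, read 10.86, 11.22 and 13.07 in wild-type and 9.05, 9.72 and 12.07 in MyD88 KO. Its gap narrowed from 1.81 before LPS to 1.00 at 4 h. Gpr84, which binds medium-chain fatty acids, was 1.20, 1.25 and 1.53 lower at the 3 times. Hcar2, the niacin receptor, by contrast differed by 0.09 before LPS and 1.08 at 4 h.

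Genes of signalling feedback moved both ways, 3 of 17 lower and 3 higher by limma, against 2.11% and 3.12% of all genes (median -0.23). Socs3, which restrains STAT3 signalling, read 7.66, 9.53 and 9.51 in wild-type, 7.57, 7.95 and 7.67 in MyD88 KO, and 7.86, 8.91 and 9.29 for TRIF KO. Its MyD88 KO level rose slightly at 1 h and was near its start at 4 h, 3.57-fold under wild-type (adjusted p = 0.00137). Pde4b, which degrades cyclic AMP, read 9.65, 7.83 and 8.98 at 4 h. Rgs2 and Rgs1, which switch off G protein signals, were higher: Rgs2 read 10.16, 9.42 and 7.997 in wild-type and 10.02, 9.88 and 9.58 in MyD88 KO, and Rgs1 read 9.91 and 11.09 at 4 h. Wild-type levels of both dropped with LPS while those of MyD88 KO dropped less, and TRIF KO read 8.96 and 10.92. Of the mRNA decay genes, Zc3h12a (Regnase-1) was 1.04 lower (adjusted p = 0.0287) and Zfp36l2 0.70 higher (adjusted p = 0.0153), and neither passed after centring, where Zc3h12a differed by -1.16 (SE 0.33 instead of 0.26; adjusted p = 0.0935) and Zfp36l2 by 0.58 (adjusted p = 0.141). Zfp36, tristetraprolin, differed by -0.23 at 4 h (adjusted p = 0.624), after -0.81 at 1 h.

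Of 25 costimulation and adhesion genes 8 were lower and 1 higher by limma (median -0.34). Cd40, the costimulatory receptor for T cell help, read 9.88 in wild-type, 8.34 in MyD88 KO, and 8.65 for TRIF KO at 4 h. Icosl, the ICOS ligand, read 8.15, 6.76 and 7.72, and Traf1 read 7.54, 6.15 and 6.49. Icam1, an adhesion molecule for leukocytes, read 11.39, 10.10 and 10.41, and its MyD88 KO level had been 0.98 lower before LPS. None of 19 antigen presentation genes passed limma, with 2 lower and 0 higher at an unadjusted p under 0.05 (median -0.03). H2-Aa, an MHC class II chain, read 12.20 and 11.96. In the inflammasome list 3 of 18 were lower and 1 higher, against 2.11% and 3.12% of all genes, so the 1 higher member gives no result about the list. Nlrp3 read 10.40 and 9.09, and Naip5, a sensor of bacterial flagellin, 7.44 and 8.17.

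Immediate early and AP-1 genes were split, with 4 of 25 lower and 3 higher by limma (median -0.17). Maff, a small Maf protein, read 8.63 and 7.37, and Cebpd, a C/EBP factor, 8.92 and 7.76. Fos read 11.09, 12.01 and 10.48 in wild-type and 10.96, 11.42 and 11.14 in MyD88 KO. It was 0.59 lower in MyD88 KO at 1 h and 0.66 higher at 4 h, where the call (adjusted p = 0.019) was lost after centring (adjusted p = 0.15). Klf4, a Krüppel-like factor, read 5.94 and 6.82.

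**Figure D3:**
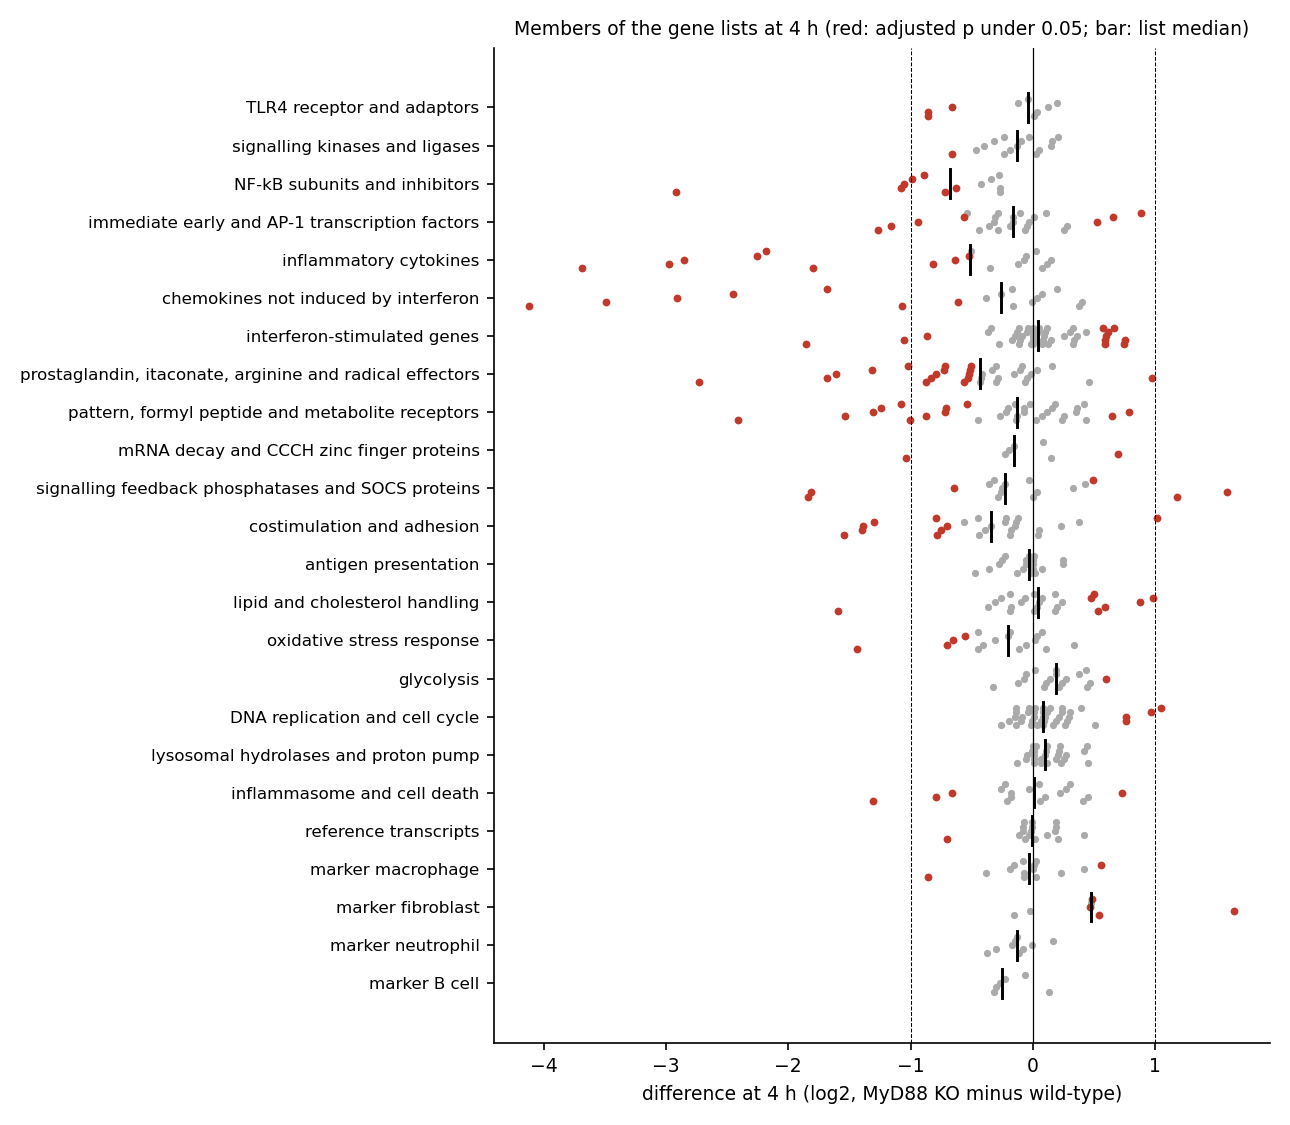
Difference at 4 h (horizontal axis, log2, MyD88 KO minus wild-type) of each measured member of 24 gene lists (rows), with members at an adjusted p under 0.05 in red, the others in grey and the list median as a black bar; dashed lines mark 2-fold. Cytokine, chemokine and effector members reach below -2, while the interferon-stimulated genes centre near 0.

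Interferon-stimulated genes, which answer mainly to the TRIF branch, centred near wild-type. Of 47 measured, 3 were lower (Irf1, Ccl5 and Gbp2) and 8 higher by limma, and 36 did not pass; the median was 0.04, which turned to -0.08 after centring, where 3 were lower and 2 higher (Irf8 and Usp18). Ifit2, an interferon-induced RNA-binding protein, read 5.85, 5.82 and 7.87 in wild-type, 6.44, 6.79 and 8.62 in MyD88 KO, and 5.46, 5.36 and 5.77 for TRIF KO. It climbed in wild-type and MyD88 KO alike and stayed low in TRIF KO. Usp18, which removes ISG15 from proteins, read 8.08, 8.83 and 7.07 at 4 h. The 8 higher genes differed by 0.57 to 0.76 at 4 h and by 0.13 to 0.86 before LPS, and for none of them did limma find that the 4 h difference departed from the earlier ones.

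Set directly against TRIF KO at 4 h, 44 of the 47 interferon-stimulated genes were higher in MyD88 KO, against 48.1% of all genes, with a median of 0.52 against -0.01. Of them 13 were at least 2-fold higher, where 26 genes were (0.259% of all genes). A difference between genotypes was in part present before LPS, when 38 of the 47 read above wild-type in MyD88 KO, against 55.0% of all genes. At 4 h TRIF KO against wild-type, which shares the wild-type array, gave 35 genes 2-fold lower (0.349%) and 8 higher (0.0797%). Cxcl10, an interferon-induced chemokine, read 9.75 in wild-type, 9.38 in MyD88 KO, and 7.58 for TRIF KO, and Ifit1 read 10.40, 10.40 and 8.06. Before LPS, Cxcl10 read 6.85 in MyD88 KO and 6.93 for TRIF KO, and Ifit1 read 8.15 and 7.37. Both genes were picked after their values were seen. Ccl5 (RANTES), a T cell attractant, was low at 4 h in both knockouts: it read 7.68, 7.71 and 11.48 in wild-type, 7.60, 7.71 and 9.63 in MyD88 KO, and 7.11, 7.14 and 7.56 for TRIF KO. Its MyD88 KO level was 3.61-fold under wild-type (adjusted p = 2.39e-07) and stood between the other genotypes. Gbp2, a guanylate-binding protein, read 10.07, 9.01 and 8.96, and Irf1 10.89, 10.03 and 10.17.

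Part of the comparison was present before LPS. Of the 56 genes 2-fold lower at 4 h, 10 (17.9%) were 2-fold lower in unstimulated cells, which is 58.8% of the genes 2-fold lower there: Calml4, Clec4e, Ctse, Cxcl16, Cxcl2, Fpr2, Gpr84, Lcn2, Marco and Nfkbie. Of the 21 higher, 7 (33.3%) were 2-fold higher in unstimulated cells, 87.5% of the genes 2-fold higher there. Within 0.5 of wild-type before LPS lay 33 of the 56 and 10 of the 21. Over all genes 99% lay within 0.656 at that time, so these counts do not mark the 56 or the 21 as unusually alike before LPS. The medians of the 56 were -0.36, -0.62 and -1.31 at 0, 1 and 4 h, and those of the 21 were 0.55, 0.75 and 1.20.

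Whether the 4 h difference departed from the mean of the 0 and 1 h differences was tested with limma in the same fit. It lay below for 41 genes (0.409%) and above for 20 (0.199%). With the values as deposited the departures were largest for Il6 at -2.81 ± 0.24 (SE; adjusted p = 1.68e-05), Ccl3 at -2.67 (adjusted p = 5.43e-05), Il1b at -2.41 (adjusted p = 0.0224), Cxcl5 at -2.37 (adjusted p = 1.06e-06) and Ptgs2 at -2.31 (adjusted p = 0.000535). This order rests on levels near the array's floor: with values under 6 raised to 6 the departures were -0.96 for Il6 and -0.47 for Cxcl5, against -2.67 for Ccl3, -2.41 for Il1b and -2.09 for Ptgs2. Cxcl1 and Tnf did not pass, at -2.61 ± 0.67 (adjusted p = 0.134) and -1.20 ± 0.44 (adjusted p = 0.473). Their differences moved from -0.08 and -0.73 at 0 h to -2.93 and -2.59 at 1 h, and this early change widened the error. Genes with a constant gap included Nfkbie (departure 0.01), Cxcl16 (-0.04) and Marco (-0.19). The counts were 18 and 3 after centring, 0 and 0 with values under 6 raised to 6 (329 and 290 at an unadjusted p under 0.05), 76 and 49 when the wild-type 0 h array was left out, 116 and 135 for its 1 h array, 62 and 52 for the MyD88 KO array at 0 h, and 114 and 106 for that at 1 h.

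**Figure D4:**
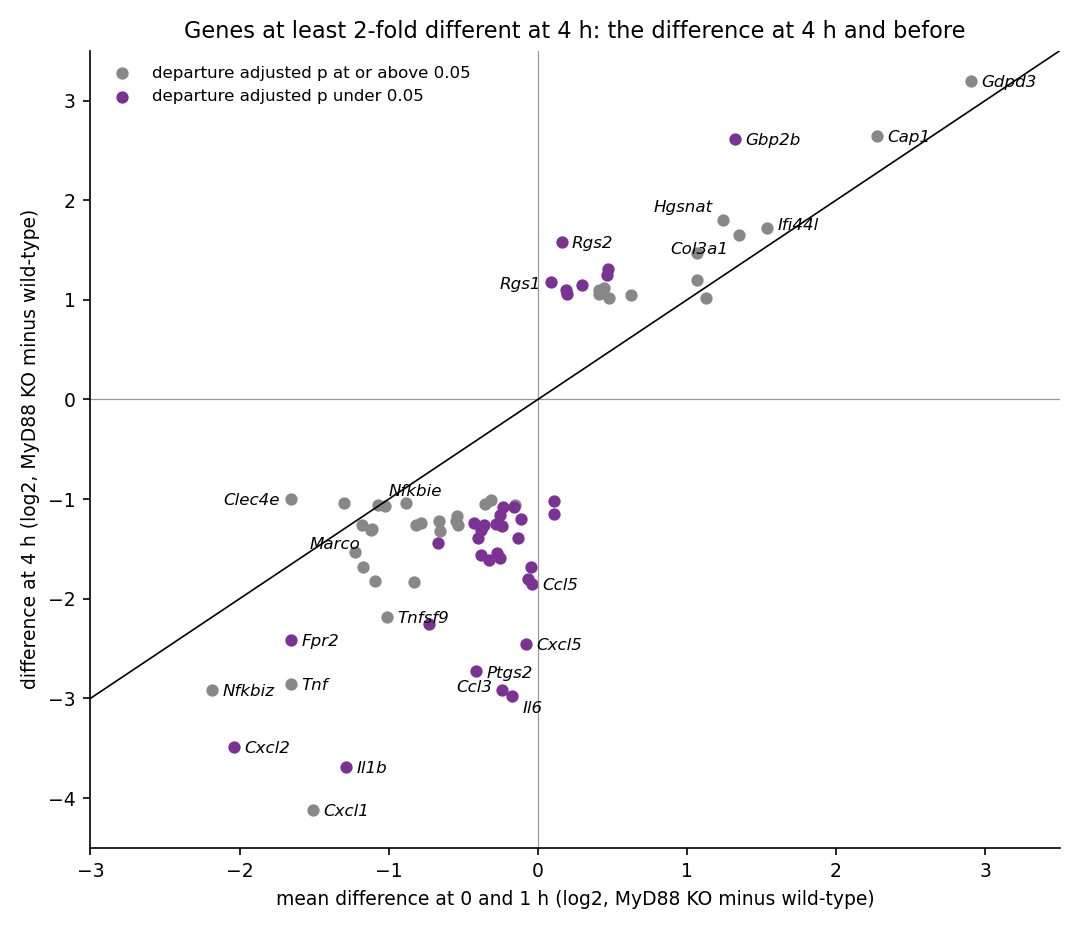
Difference at 4 h (vertical axis) against the mean of the differences at 0 and 1 h (horizontal axis), both log2, MyD88 KO minus wild-type, for the 77 genes at least 2-fold different at 4 h. On the diagonal the gap is the same before and after. Purple points (30 of the 56 lower and 8 of the 21 higher genes) departed from it at an adjusted p under 0.05 by limma. Over all genes 0.409% lay below and 0.199% above, and the 77 were chosen by the 4 h difference, which the departure contains.

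A set of LPS-responsive genes that shares no array with the comparison was taken from TRIF KO cells, where 41 genes (0.409% of all) rose at least 2-fold from 0 to 4 h. The set thus holds only genes that still rose without TRIF. All 41 read lower in MyD88 KO than in wild-type at 4 h, against 55.5% of all genes, with a median difference of -1.30. Of the 41, 27 were at least 2-fold lower (0.558% of all genes were) and 38 were lower by limma (2.11% of all genes were). The 27 are 65.9% of the genes induced in TRIF KO and 48.2% of the 56 lower genes. The 5 genes that dropped at least 2-fold in TRIF KO, Abcd2, Ccr2, Cd300lf, Rgs2 and Thbd, all read higher in MyD88 KO than in wild-type, against 44.5% of all genes. Their median was 0.81, and 4 were higher by limma (3.12% of all genes were). Thbd, thrombomodulin, read 6.73 in wild-type and 7.82 in MyD88 KO.

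The genes highest in MyD88 KO fell into groups by their TRIF KO and unstimulated levels. Gdpd3, a lysophospholipase D, read 7.71, 7.82 and 7.31 in wild-type, 10.63, 10.70 and 10.51 in MyD88 KO, and 11.22, 11.07 and 10.94 for TRIF KO. Cap1, which recycles actin monomers, read 9.29, 9.02 and 8.69 in wild-type, 11.46, 11.40 and 11.34 in MyD88 KO, and 11.41, 11.29 and 11.32 for TRIF KO. In both genes the knockouts were alike and wild-type stood apart at every time, by 9.15-fold and 6.25-fold at 4 h (adjusted p = 1.65e-09 and 5.6e-09), and a second Cap1 probe set gave 2.63. Gprc5b, an orphan receptor, at 7.88, 9.35 and 9.32, Gnb1, a G protein beta subunit, at 9.63, 10.83 and 11.12, and Itgax (CD11c) at 10.25, 11.27 and 11.43 were likewise higher in both knockouts than in wild-type at 4 h. Other Gnb1 probe sets differed by 0.35 and -0.11.

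Gbp2b, a guanylate-binding protein, read 5.70, 5.67 and 5.68 in wild-type, 6.99, 7.03 and 8.29 in MyD88 KO, and 5.70, 5.62 and 5.89 for TRIF KO. It was higher in MyD88 KO before LPS, and at 4 h it read higher still in MyD88 KO, 6.13-fold over wild-type (adjusted p = 5.6e-09). Ifi44l, an interferon-induced gene, read 4.66, 4.84 and 4.95 in wild-type, 6.43, 6.15 and 6.67 in MyD88 KO, and 4.63, 4.51 and 4.80 for TRIF KO. Hgsnat, a lysosomal acetyltransferase of heparan sulfate breakdown, read 8.16, 9.96 and 8.68 at 4 h and was 1.23 higher in MyD88 KO before LPS. With values under 6 raised to 6, Ifi44l differed by 0.67 and did not pass (adjusted p = 0.152). In that setting 65 of the 77 genes past 2-fold lost the call. In Gbp2b, Ifi44l and Hgsnat MyD88 KO stood apart from both other genotypes. Gbp2b and Ifi44l reached the level limit of 6 on MyD88 KO arrays only, so they were analysed only because they were high there. Of the lysosomal list, none of 26 members passed limma, with 0 lower and 3 higher at an unadjusted p under 0.05 (median 0.10, which became -0.02 after centring).

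A further group was lowered by LPS in wild-type and less so in MyD88 KO and TRIF KO. Rab7b, a small GTPase of late endosomes, read 10.13, 10.21 and 9.26 in wild-type and 10.59, 10.68 and 10.51 in MyD88 KO. Mknk2, a kinase of eIF4E, read 10.25, 10.33 and 8.98 in wild-type and 10.80, 10.72 and 10.29 in MyD88 KO. Cnr2, the cannabinoid receptor of immune cells, read 7.52, 7.35 and 6.06 against 7.75, 7.71 and 7.21. In all of these the drop with LPS was visible in wild-type and smaller in MyD88 KO, and their departures were 0.78, 0.83 and 0.85 (adjusted p = 0.0293, 0.0246 and 0.0224). It was smaller in TRIF KO too, which changed by -0.19, -0.83 and -0.62 from 0 to 4 h, against -0.87, -1.27 and -1.46 in wild-type. Hip1, a clathrin-binding protein, read 7.69 and 8.81 at 4 h. Of the 21 higher genes 20 also read above wild-type in TRIF KO at 4 h, and of the 56 lower genes 53 read below it. Over all genes the median of TRIF KO minus wild-type at 4 h was -0.01, and the share on each side was not counted. Both comparisons share the wild-type array by which the genes were picked, so these counts give no separate result about them.

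Of 24 lipid and cholesterol genes 6 were higher and 1 lower by limma, against 3.12% and 2.11% of all genes (median 0.04, -0.08 after centring, where Abcg1 and Pparg were still higher). Pparg, a nuclear receptor for fatty acids, read 9.05, 8.81 and 7.40 in wild-type, 8.91, 8.95 and 8.38 in MyD88 KO, and 8.999, 8.89 and 8.17 for TRIF KO. It dropped with LPS in all 3 genotypes and least in MyD88 KO (difference 0.98 ± 0.14, SE; adjusted p = 0.000319). Abcg1, a cholesterol exporter, read 9.27, 10.15 and 9.76 at 4 h. Ch25h, which makes 25-hydroxycholesterol, was the lower member, at 7.28, 5.68 and 6.45. In the DNA replication list 4 of 40 were higher and none lower: Mcm6 and Mcm7, subunits of the replicative helicase, read 7.47 and 6.68 in wild-type and 8.44 and 7.73 in MyD88 KO, and were 0.55 and 0.46 higher before LPS. Other Mcm7 probe sets differed by 0.51 and -0.07. Of 17 oxidative stress genes 4 were lower, led by the cystine transporter Slc7a11 at 10.43 and 8.99. Among 18 glycolysis genes 1, Pfkfb3, was higher by limma at 6.68 and 7.28 and did not pass after centring (adjusted p = 0.111). With 3.12% of all genes higher, 1 of 18 gives no result about the glycolysis list.

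Col3a1, a fibrillar collagen chain made by fibroblasts, read 5.42, 5.34 and 5.10 in wild-type, 6.59, 6.86 and 6.75 in MyD88 KO, and 6.05, 6.42 and 6.44 for TRIF KO. Every knockout array was above every wild-type array, and the 4 h difference was 1.65 ± 0.15 (SE; adjusted p = 5.91e-06). Its wild-type values lie under 6, and raised to 6 the difference was 0.75 (adjusted p = 0.157). Most genes past 2-fold lost the call in that setting. Of 11 fibroblast markers 4 stayed under 6 on both 4 h arrays, and of the 7 that reached it Col1a2, Col3a1, Sparc and Mgp were higher by limma, Col3a1 alone after centring. Summed over all 11 markers, the linear level was 1201.3 in wild-type and 1561.7 in MyD88 KO at 4 h. Over the 9 arrays, these 2 included, it ran from 1152.6 to 1672.2. In bulk RNA fewer cells of a type and less RNA per cell cannot be told apart, and the part of fibroblast RNA in the result was not tested. Xist, the X-inactivation RNA of female cells, read between 10.43 and 10.91 on all 9 arrays.

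Of the 5 measured genes on each side of Myd88 on its chromosome, 5 reached the limit and none passed, Vill at 0.02, Plcd1 at -0.07, Slc22a13 at -0.19, Oxsr1 at 0.21 and Acaa1a at 0.05. Calml4, Ctse and Sdc4 are named for completing a count. Among other 2-fold genes outside the naming rule, picked after their values were seen, Mefv (pyrin) read 9.98 and 8.41, Cxcl13, a B cell attractant, 9.88 and 8.62, and Dio2, a thyroid hormone deiodinase, 7.82 and 8.88. Other probe sets existed for 28 of the 77 genes: 29 of 33 pointed the same way, 14 of them by at least 2-fold, and the 4 that did not belonged to Ctse (0.27), Sdc4 (0.27), Gnb1 and Mcm7. At the level limit, Rab27a, Tshb and Tmem79 were just inside (differences 0.04, 0.06 and -0.29) and 2810002D19Rik, Serping1 and Rab4a just outside (0.02, -0.03 and 0.01), and none of the 2362 genes under the limit differed 2-fold.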

How the data were processed

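Total RNA from 9 cultures of mouse peritoneal macrophages was hybridised to Affymetrix arrays, 1 per genotype and time. The deposited values are log2 expression estimates that the authors computed by RMA (per the submitters' processing notes); neither its version nor a joint normalization of all arrays is stated in the labels. Genes were named through GEO's platform annotation: 20393 of 22690 probe sets had 1 symbol, 691 several and 1606 none listed, and 20364 identifiers were found in RefSeq (GRCm38.p6). Limma 3.58.1 in R 4.3.3 was fitted to all 10032 genes as described above (2 residual and 13.56 prior degrees of freedom; median SE 0.13; two-sided; Benjamini-Hochberg adjustment over all genes). The fit was also run on simulated data of all 10032 genes, with independent noise of the fit's own spread on all arrays, 4 h included. Of 100 genes changed by 0.5, 67% were found for the 4 h difference and 46% for the departure. Of 100 changed by 1, 100% and 99% were found, with 15 and 13 false calls. The assumption that 4 h arrays vary like the earlier ones held there by construction, so these rates do not measure error in the real data. Named were Myd88, the 15 lowest and 15 highest differences, up to 6 members of each of 32 gene lists by size of difference, the 5 measured genes on each side of Myd88 and the 3 nearest the level limit on each side, and others where said. The genes, lists, motifs and limits were chosen with earlier results of these data known. Since nothing says that the 0 and 1 h arrays came from separate mice, the p-values may reflect technical spread alone, and 9 arrays limit the precision.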

Additional observations from a re-analysis of the deposited data

Results flagged for a closer look

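For 15 of the 30 genes with the lowest or highest differences, the limma test found that the genotype difference at 4 h departed from that at 0 and 1 h (MyD88 KO minus wild-type, log2). Over all genes, 0.409% lay below and 0.199% above. The 30 were picked by the 4 h difference, which the departure contains, so a higher share among them follows from the choice. The departures below 0 were -2.81 for Il6, -2.67 for Ccl3, -2.41 for Il1b (-2.405), -2.37 for Cxcl5, -2.31 for Ptgs2, -1.82 for Ccl5, -1.52 for Il1a, -1.45 for Cxcl2 and -0.76 for Fpr2. Those above 0 were 1.43 for Rgs2, 1.30 for Gbp2b, 1.09 for Rgs1, 0.85 for Cnr2, 0.83 for Mknk2 and 0.78 for Rab7b. Outside the named genes, 13 of 1433 probe sets with no single gene name differed at least 2-fold at 4 h, 8 lower and 5 higher, from -2.24 to 2.34; 6 did so between the unstimulated arrays.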

How the results depend on the processing

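No paired analysis was possible because each group has 1 array. The 2-fold lower count was 30 instead of 56 when each 4 h array was set against the unstimulated array of its genotype, and 27 of the 30 were among the 56, since this subtracts the unstimulated difference. The 2-fold higher count was then 15, of which 3 were among the 21. Centring on the reference transcripts, which moves every 4 h difference by the same amount, gave 13 genes 2-fold higher, 100 higher by limma, and 18 and 3 departures below and above 0. Raising values under 6 to 6 gave 7 lower and 5 higher genes by limma, and 0 and 0 departures. It gives low genes tied values with no spread, and the cause of the fewer calls was not tested. Genes that never read under 6 lost the call too at an unchanged difference, such as Cxcl2 (-3.49), Tnf (-2.855) and Cd14 (-0.854). A lost call in this setting is therefore not particular to genes with low levels. At an unadjusted p under 0.05, 721 and 823 genes passed for the level and 329 and 290 for the departure. Leaving out each 0 h or 1 h array in turn gave 166 to 452 lower and 221 to 654 higher genes, and 41 to 116 departures below and 17 to 135 above 0; leaving out the TRIF KO arrays gave the smallest level counts. A 4 h array cannot be left out. Of the 77 genes past 2-fold, 65 lost the limma call with values raised to 6, 17 in an additive fit of genotype and time, which averages the 3 times, 3 with the mean of a gene's probe sets, 2 after centring, and 0 with any 0 or 1 h array left out. Each fit with an array left out kept 1 residual degree of freedom. In all of them the adjusted p-values of genes such as Cxcl1, Il1b and Gdpd3 became far smaller than in the main fit, so this last check could hardly have shown a loss. The difference of Fos turned to -0.022 in the additive fit. The other alternatives (no level limit, a limit of 7, a trend in the prior) kept the counts within 1.5 times.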
